A study of Mus musculus with 10 samples.

Results

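The 43 genes described here encode E2F transcription factors and the proteins that license, fire and copy DNA replication origins, and all are rows of both deposited expression tables, which have 15997 genes in common. They are taken from the tables by gene symbol. RNA-seq was done on ASZ001 cells, an established mouse basal cell carcinoma (BCC) line that is resistant to inhibitors of Smoothened, in 2 experiments with separate vehicle (DMSO) controls. In the SB431542 experiment, 3 samples received DMSO and 3 received 10 µM SB431542, which blocks the TGFß receptor ALK5. For the T-5224 experiment, 2 samples received DMSO and 2 received 20 µM T-5224, an inhibitor of AP-1. All cells, controls included, were kept in medium with low serum and low calcium for 24 h. Each comparison is thus between serum-starved cells with and without the inhibitor. A single cell line was used, and RNA came from whole cultures. In these, a change in the share of cells in S phase and a change in RNA per cell cannot be told apart. The labels call the samples of a group biological replicates without naming separate cultures or days, and p-values measure the spread between these samples only.

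A cell copies its DNA once per division. Origins are licensed when the origin recognition complex, CDC6 and CDT1 load the MCM2-7 helicase onto DNA, and they fire when CDC7 kinase, CDC45 and the GINS complex turn that helicase on. The genes for these proteins, and for the polymerases, the sliding clamp and the enzymes that make deoxynucleotides, are known targets of E2F factors, which are held back by pocket proteins in resting cells. In skin, the dividing keratinocytes are those of the basal layer and of the hair follicle matrix.

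Expression is given as deposited, in RPKM, which divides the reads of a gene by its length and by the depth of its library, so levels can be set side by side between genes. The depth read from the whole-read steps of low values lay between 31.7 and 51.2 M reads per library, and the member value that rested on the fewest reads stood for about 250 reads in the SB431542 table and about 41 in the T-5224 table (Gins1 in both). DMSO replicate 1 of the SB431542 experiment stood apart from its group over all genes (SD of its log2 differences from the other 2 of 0.27, against 0.12 to 0.19 for the other 5 libraries), with 770 RPKM of the ribosomal RNA Rn45s against 2101 and 2155. Rn45s also differed between the T-5224 libraries, at 1862 RPKM in replicate 1 and 5184 in replicate 2, against 3401 and 3473 in their DMSO controls. Of 7 keratinocyte markers, the defining Krt5 and Krt14 were abundant in every library. The summed level of the 7, most of it from Krt5 and Krt14, went from between 9740 and 9957 RPKM in DMSO to between 6914 and 7382 with SB431542. With T-5224 it went from between 12623 and 13242 to between 2012 and 2096. With SB431542, Krt5, Krt14 and Perp fell, while Trp63, Itga6, Itgb4 and Cdh1 did not pass the test (adjusted p of 0.533 to 0.775, limma). All 7 fell with T-5224. The summed level of 6 fibroblast markers was at most 4.14 RPKM in any library, with 5 of the 6 under 1 RPKM or not listed throughout, while Dcn went from 2.13 to 3.71 RPKM with SB431542 (adjusted p = 0.00178, limma) and from 1.89 to 2.55 RPKM with T-5224 (adjusted p = 0.0146). Among 5 immune and 3 endothelial markers, Ptprc, Cd3e, Lyz2, Cdh5 and Kdr were under 1 RPKM or not listed in every library, while Pecam1 fell from 5.75 to 2.69 RPKM with SB431542 (adjusted p = 0.00103) and from 11.3 to 4.39 RPKM with T-5224 (adjusted p = 1.27e-07). Cd68 was at 8.43 and 8.08 RPKM without and with SB431542 (adjusted p = 0.854) and rose from 17.6 to 33.0 RPKM with T-5224, and Cd74 was under 1 RPKM in the SB431542 table and rose from 0.0800 to 4.44 RPKM with T-5224. The part of these marker changes in the results below was not tested.

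Sequence near the start of a gene was read from the RefSeq promoters of GRCm38.p6 (250 bases before to 50 after the start, which is counted as 0). These windows exist for 36 of the 43 members. An E2F motif (TTTCCCGC, TTTCGCGC, TTTGCCGC or TTTGGCGC, on either strand) was in the windows of 16 of the 36 (44.44%), against 2.60% of all 27025 genes. A CCAAT box was in 25 of the 36 (69.44%), against 41.06% of all genes. The AP-1 motif (TGACTCA or TGAGTCA, either strand) was in 0 of the 36, against 5.95% of all genes, which says only that these letters are not in this window. The members with an E2F motif were E2f2, E2f3, E2f7, Orc1, Cdc6, Cdt1, Mcm3, Mcm5, Mcm6, Mcm7, Gins3, Pola1, Pold1, Rfc3, Lig1 and Uhrf1. Shown here are the members with the motif that had the largest changes with T-5224 (Cdt1 and Mcm5), the helicase gene with the motif that went the other way (Mcm6, chosen after its values were seen) and one large change without the motif (Cdc45), each 5′ to 3′ on the strand of the gene with E2F motifs in capitals. The stretch of Cdt1 lies at chr8:122568038-122568063 (plus strand, bases 23 to 48 after the start), Mcm5 at chr8:75109259-75109508 (plus strand), Mcm6 at chr1:128359706-128359955 (minus strand) and Cdc45 at chr16:18811973-18812222 (minus strand). The last 3 are the 250 bases before the start.
Cdt1: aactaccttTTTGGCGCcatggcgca
Mcm5: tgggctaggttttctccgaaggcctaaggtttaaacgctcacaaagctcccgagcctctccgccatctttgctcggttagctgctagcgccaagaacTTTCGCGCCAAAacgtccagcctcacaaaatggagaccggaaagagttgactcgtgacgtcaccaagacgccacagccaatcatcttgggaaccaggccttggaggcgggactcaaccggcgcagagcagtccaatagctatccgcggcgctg
Mcm6: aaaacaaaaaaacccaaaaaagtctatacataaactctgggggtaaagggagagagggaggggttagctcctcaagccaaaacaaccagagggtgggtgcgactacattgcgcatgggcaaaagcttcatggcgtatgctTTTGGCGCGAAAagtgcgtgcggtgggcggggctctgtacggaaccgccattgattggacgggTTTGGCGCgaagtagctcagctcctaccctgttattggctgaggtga
Cdc45: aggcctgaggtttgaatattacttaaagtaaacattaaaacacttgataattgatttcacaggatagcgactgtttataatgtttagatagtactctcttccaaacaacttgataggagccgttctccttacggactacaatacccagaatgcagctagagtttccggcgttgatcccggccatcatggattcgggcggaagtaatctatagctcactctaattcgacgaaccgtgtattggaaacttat
Mcm5 holds 2 overlapping matches, on opposite strands and starting at -153 and -149. Mcm6 holds the same kind of overlapping pair, starting at -110 and -106, and a further match at -47. The match in Cdt1 starts at base 32.

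With the ALK5 inhibitor SB431542, the replication genes were slightly and broadly higher. Of the 43 members, 26 rose at an adjusted p under 0.05 (limma, two-sided, Benjamini-Hochberg over all 10842 genes tested), where 10.2% of all genes tested rose, and 0 fell, where 10.0% of all genes fell. At an unadjusted p under 0.05, 36 members were higher and 0 lower, where 2070 of all 10842 genes were higher and 1842 lower. All SB431542 libraries lay above all DMSO libraries for 38 of the 43, against 23.9% of all genes, below them for 0, against 21.3%, and the groups overlapped for E2f3, E2f7, Gins1, Gins2 and Gins4. The median log2 fold change of the members, on the log2(RPKM + 0.5) scale, was 0.26, and that of all genes tested was 0.01. Changes were small: the range was −0.02 (Gins4, which was at 0.05 without DMSO replicate 1) to 0.58 (Cdt1). At an adjusted p under 0.05, 0 members passed the study's limit of a 2-fold change, where 0.231% of all genes rose and 0.581% fell past it. At an unadjusted p under 0.05, 0 members passed that limit, where 99 of all 10842 genes did so in either direction. The number of members called depended on single libraries, since it was 36 without DMSO replicate 1, the library that stood apart, and 9, 8 and 6 without SB431542 replicates 1, 2 and 3. Only the calls of Cdt1, Mcm3, Mcm7, Rfc5, Tyms and Uhrf1 held in every alternative run. The median stayed between 0.25 and 0.27 in every alternative run.

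With the AP-1 inhibitor T-5224, changes were larger and went both ways. Of the 43 members, 30 rose and 6 fell at an adjusted p under 0.05 (limma), where 40.3% of all 10809 genes tested rose and 39.4% fell. Past 2-fold, 11 rose (Orc1, Orc2, Orc6, Cdt1, Mcm2, Mcm5, Cdc45, Mcm10, Pole, Rfc4 and Rfc5), where 10.4% of all genes rose, and E2f2 fell, where 10.6% fell. Pold1 (log2 fold change 0.997) and Cdc7 (0.98) fell just short of the limit of 1. Both T-5224 libraries lay above both DMSO libraries for 31 members, against 45.1% of all genes, and below them for 7, against 44.5%. The median log2 fold change was 0.56 for the members and 0.00 for all genes tested. Orc1, Cdc6 and Cdc7 were under 1 RPKM in both DMSO libraries and passed the filter on low values (a mean of at least 1 RPKM over the libraries of a table) only through the T-5224 libraries. Over the other 40 members, 27 rose, 10 of them past 2-fold, 6 fell and the median was 0.54. Orc1, Cdc6 and Cdc7 are kept in the counts by role and by motif below.

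**Figure D1:**
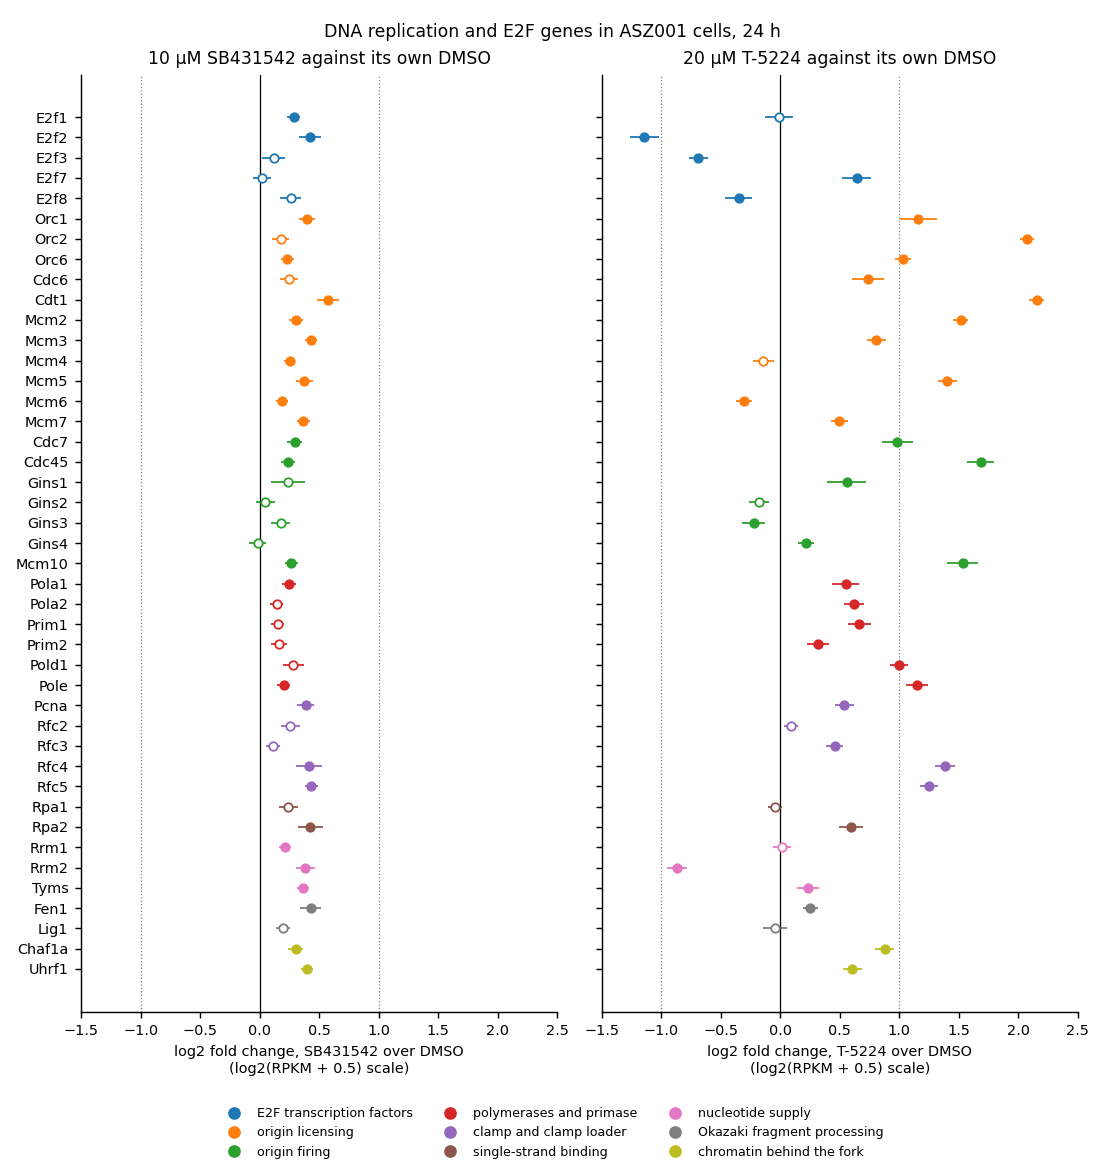
Log2 fold change of each of the 43 members over DMSO with SB431542 (left, n = 3 per group) and T-5224 (right, n = 2 per group), with bars for the standard error, filled points for an adjusted p under 0.05 (limma), colors for the role of the gene and dotted lines at a 2-fold change. With SB431542 the points lie between −0.02 and 0.58, and with T-5224 between −1.14 (E2f2) and 2.15 (Cdt1).

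**Figure D2:**
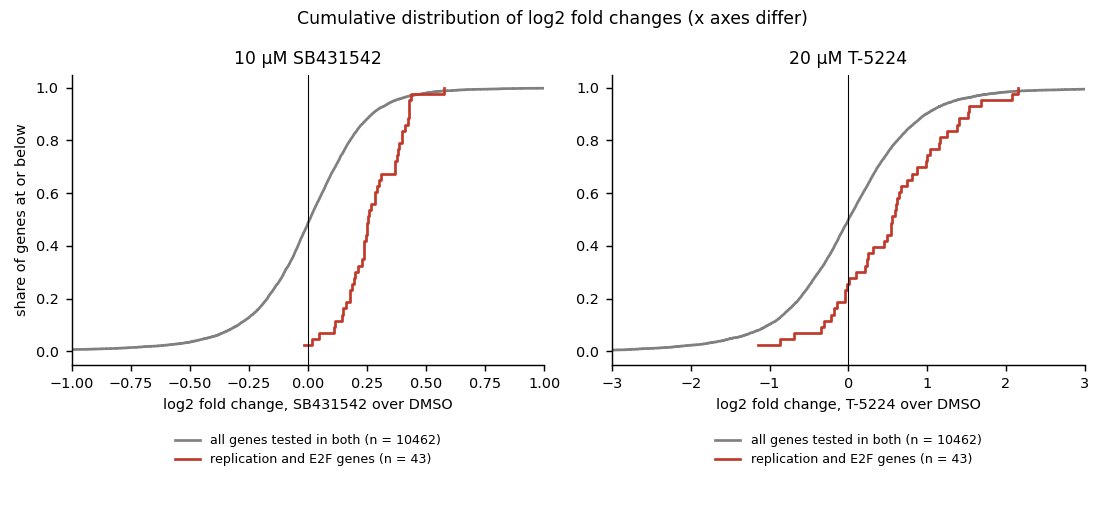
Cumulative share of genes (y axis) at or below a log2 fold change (x axis, with a wider range on the right) for the 43 members (red) and for the 10462 genes tested in both experiments (grey). The members' curve lies to the right of that of all genes over most of its length, and with T-5224 its lower end reaches −1.14.

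The shares of all genes given above, 10.2% higher and 10.0% lower with SB431542 and 40.3% higher and 39.4% lower with T-5224, stand behind each count by role that follows. The E2F factors themselves did not move as one. E2f1, E2f2 and E2f3 encode activators of replication genes, and E2f7 and E2f8 encode atypical E2Fs that repress them. With SB431542, E2f1 and E2f2 rose and the other 3 did not pass the test. With T-5224, E2f2, E2f3 and E2f8 fell, E2f7 rose and E2f1 did not pass the test, so that 3 of the 6 members that fell were E2F genes.

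E2f2 (mm9 chr4:135728309-135751972) had 3.15, 3.68 and 4.0 RPKM in the DMSO libraries and 4.92, 5.13 and 4.93 RPKM with SB431542 (log2 fold change 0.42, standard error 0.09, adjusted p = 0.0180). All 3 treated values were above all controls, and the call was lost when any one SB431542 library was left out. In the T-5224 experiment it had 2.79 and 2.59 RPKM in DMSO and 1.03 and 0.863 RPKM with the inhibitor (−1.14, standard error 0.12, adjusted p = 4.44e-06). E2f2 was thus 1.38 times its DMSO mean with one inhibitor and 0.352 times with the other, and its fall was past 2-fold at the pseudocount used but not with a pseudocount of 1 or after quantile normalization.

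E2f1 (mm9 chr2:154385143-154395628) had 17.5, 18.1 and 17.9 RPKM in DMSO and 21.1, 22.5 and 21.9 RPKM with SB431542 (0.28, standard error 0.05, adjusted p = 0.0107). These groups did not overlap. With T-5224 they did, at 4.63 and 5.01 RPKM in DMSO and 5.46 and 4.16 RPKM with the inhibitor (−0.01, standard error 0.12, adjusted p = 0.925). E2f3 (mm9 chr13:29998444-30077537) had 8.53, 10.5 and 11.1 RPKM in DMSO and 11.3, 10.5 and 10.9 RPKM with SB431542, with overlapping groups (0.12, adjusted p = 0.427). With T-5224 it fell from 8.90 and 8.96 RPKM to 5.21 and 5.49 RPKM (−0.69, standard error 0.08, adjusted p = 7.92e-06), and the pairs were well apart.

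The repressors went separate ways with T-5224. E2f7 (mm9 chr10:110182495-110224440) rose from 1.65 and 1.39 RPKM to 2.45 and 2.85 RPKM (0.64, standard error 0.12, adjusted p = 0.000479). E2f8 (mm9 chr7:56121799-56136966) was lower, from 4.60 and 5.70 RPKM to 4.22 and 3.62 RPKM (−0.35, standard error 0.11, adjusted p = 0.0142). The E2f8 values only just failed to overlap, and its call was lost without DMSO library 2, without T-5224 replicate 2, with no filter on low values and after quantile normalization. With SB431542, E2f7 was at 12.2, 10.3 and 10.9 RPKM in DMSO and 11.1, 11.2 and 11.5 RPKM with the inhibitor (0.02, adjusted p = 0.874). E2f8 was at 22.9, 18.2 and 18.5 RPKM and then at 24.0, 23.1 and 24.1 RPKM (0.26, adjusted p = 0.0810). The E2f7 groups overlapped and the E2f8 groups did not, and neither passed the test.

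**Figure D3:**
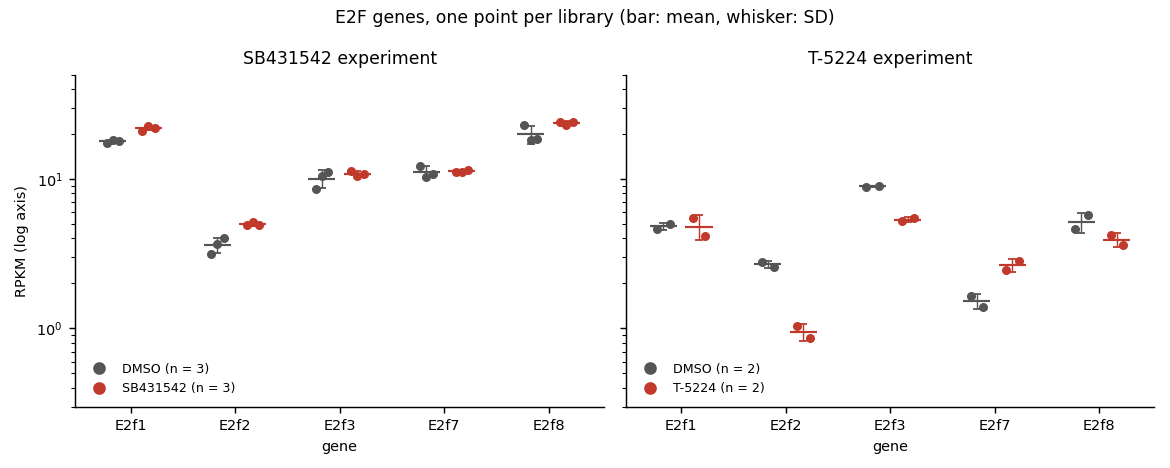
RPKM (log axis) of the 5 E2F genes in each library of the SB431542 experiment (left) and the T-5224 experiment (right), with DMSO in grey, inhibitor in red, a bar for the mean and whiskers for the SD. The red points of E2f2 lie above the grey ones on the left (4.92 to 5.13 against 3.15 to 4.0 RPKM) and below them on the right (0.863 and 1.03 against 2.59 and 2.79 RPKM).

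Origin licensing genes mostly rose with both inhibitors. Of the 11, 9 rose with SB431542 and 0 fell, with a median log2 fold change of 0.31. With T-5224, 9 rose, 6 of them past 2-fold, Mcm6 fell and Mcm4 did not pass the test, with a median of 1.03. Orc1, past 2-fold, and Cdc6 are among those that rose, and both passed the filter on low values only through the T-5224 libraries. Cdt1, the loading factor that brings the helicase to origins, had the largest log2 fold change of all 43 members in each experiment.

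Cdt1 (mm9 chr8:125091915-125097028) had 24.2, 30.7 and 30.2 RPKM in DMSO and 40.7, 42.7 and 43.6 RPKM with SB431542 (0.58, standard error 0.09, adjusted p = 0.00690). In the T-5224 experiment it had 6.57 and 6.60 RPKM in DMSO and 31.1 and 31.0 RPKM with the inhibitor (2.15, standard error 0.06, adjusted p = 1.04e-10). The mean was 1.49 times that of DMSO with SB431542 and 4.71 times with T-5224, with no overlap of groups in either. Cdc6, the other loading factor, was low in the T-5224 table, at 0.768 and 0.620 RPKM in DMSO and 1.5 and 1.48 RPKM with the inhibitor (0.74). As it passed the filter on low values only through the T-5224 libraries, its p-value is not given as support. The ratio of Cdt1 to Cdc6 within a library (a pair chosen after the values were seen) was 8.55 to 10.6 in DMSO and 20.7 to 21.0 with T-5224.

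Of the origin recognition complex, which marks origins, Orc2 (mm9 chr1:58519615-58561953) stood out with T-5224. It had 11.1 and 10.7 RPKM in DMSO and 47.5 and 47.2 RPKM with the inhibitor (2.07, standard error 0.06, adjusted p = 8.11e-11), which is 4.35 times the DMSO mean. With SB431542 it went from 21.4, 23.0 and 20.2 RPKM to 23.1, 24.1 and 25.8 RPKM, a change that did not pass the test (0.18, adjusted p = 0.112). Exons of Orc2 overlap those of Nif3l1 on the opposite strand, which went from 12.1 to 19.2 RPKM with T-5224, and whether the counting used strand is not given in the sources used here. Orc1, the ATPase of the complex, went from 0.383 and 0.590 RPKM to 1.92 and 1.49 RPKM with T-5224 (1.16). As it passed the filter on low values only through the T-5224 libraries, its p-value there is not given as support. With SB431542, Orc1 rose from a mean of 3.95 to 5.36 RPKM (0.40, adjusted p = 0.010). Orc6 rose from 11.2 and 11.7 RPKM to 24.8 and 23.2 RPKM with T-5224 (1.03, adjusted p = 5.92e-08). Orc1 and Orc6 rose with both inhibitors, Orc6 by 17.6% of its DMSO mean with SB431542 (adjusted p = 0.0280), and with T-5224 their place past 2-fold was lost with a pseudocount of 1 for Orc1 and without T-5224 replicate 1 for Orc6.

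The MCM2-7 subunits form a ring with 1 copy of each protein. With SB431542 all 6 genes rose, by 13.9% (Mcm6) to 34.8% (Mcm3) of the DMSO mean. With T-5224 they fanned out: Mcm2, Mcm5, Mcm3 and Mcm7 rose, Mcm4 did not pass the test and Mcm6 fell.

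Mcm2 (mm9 chr6:88833469-88848774) had 58.4, 60.9 and 65.2 RPKM in DMSO and 75.1, 74.7 and 78.6 RPKM with SB431542 (0.31, standard error 0.06, adjusted p = 0.0121). Mcm3 (mm9 chr1:20793055-20810359) had 54.6, 55.6 and 58.4 RPKM and then 74.4, 75.6 and 77.2 RPKM (0.43, standard error 0.05, adjusted p = 0.00196). These 2 groups of values were apart by more than their spread in each case, and the rise of Mcm3 held in every alternative run while that of Mcm2 was lost when any one SB431542 library was left out. Mcm4 had 53.1, 50.8 and 50.8 RPKM and then 60.7, 61.6 and 62.1 RPKM (0.25, adjusted p = 0.0118). Mcm5 had 47.6, 53.1 and 56.2 RPKM and then 68.5, 65.8 and 69.3 RPKM (0.38, adjusted p = 0.0114). Neither overlapped. Mcm6 had 66.6, 69.3 and 70.3 RPKM and then 77.8, 79.0 and 78.1 RPKM (0.19, adjusted p = 0.0309). Mcm7 had 87.5, 94.9 and 96.1 RPKM and then 118, 117 and 124 RPKM (0.37, adjusted p = 0.00601). Every treated value of every subunit was above every DMSO value, and Mcm6, with the smallest rise of the 6, lost its call in 7 of 14 alternatives.

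With T-5224, Mcm2 went from 13.5 and 12.6 RPKM to 39.4 and 36.9 RPKM (1.51, standard error 0.07, adjusted p = 2.20e-09). Mcm5 (mm9 chr8:77633427-77652338) went from 12.3 and 10.6 RPKM to 32.7 and 29.6 RPKM (1.40, standard error 0.08, adjusted p = 2.29e-08). They were at 2.93 and 2.72 times their DMSO means, well above the spread of either pair. Mcm3 went from 11.5 and 10.7 RPKM to 21.0 and 18.5 RPKM (0.81, adjusted p = 1.92e-06), and Mcm7 from 11.9 and 12.7 RPKM to 18.1 and 17.2 RPKM (0.50, adjusted p = 3.98e-05), rises of under 2-fold with no overlap. Exons of Mcm7 overlap those of Ap4m1 and Cops6 on the opposite strand. With T-5224, Ap4m1 was at 0.519 times its DMSO mean, and Cops6 went from 162 to 183 RPKM. On the same strand, exons of Mcm7 overlap Mir25 and Mir93. Mir25 was at a mean of 0.152 RPKM in DMSO and 0.0 RPKM with T-5224, and Mir93 was not listed in that experiment. Mcm4 was at 13.4 and 11.6 RPKM and then at 11.9 and 10.7 RPKM, with overlapping groups (−0.14, standard error 0.09, adjusted p = 0.145). Mcm6 (mm9 chr1:130228168-130256233) went from 21.1 and 19.3 RPKM to 16.2 and 16.2 RPKM (−0.31, standard error 0.07, adjusted p = 0.00136). It was the highest of the 6 in DMSO and the second lowest with T-5224.

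The unequal change with T-5224 can also be read within single libraries, with Mcm6 as the divisor, which was picked after it was seen to fall, so that these ratios restate the changes above. Mcm2 was between 0.640 and 0.651 times the level of Mcm6 in the DMSO controls of T-5224 and between 2.28 and 2.43 times with T-5224. The ratio of Mcm5 to Mcm6 went from between 0.551 and 0.583 to between 1.82 and 2.01, that of Mcm3 to Mcm6 from between 0.543 and 0.553 to between 1.14 and 1.29, that of Mcm7 to Mcm6 from between 0.566 and 0.661 to between 1.06 and 1.11, and that of Mcm4 to Mcm6 from between 0.604 and 0.636 to between 0.660 and 0.733. The groups did not overlap in any of the 5 ratios. An exact permutation test of each gave p = 0.333, the smallest p possible with 2 libraries per group, so it cannot tell the groups apart. With SB431542 the same ratios moved less, for example from between 0.803 and 0.831 to between 0.957 and 0.989 for Mcm3 to Mcm6, and those of Mcm4 to Mcm6 overlapped between the groups.

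**Figure D4:**
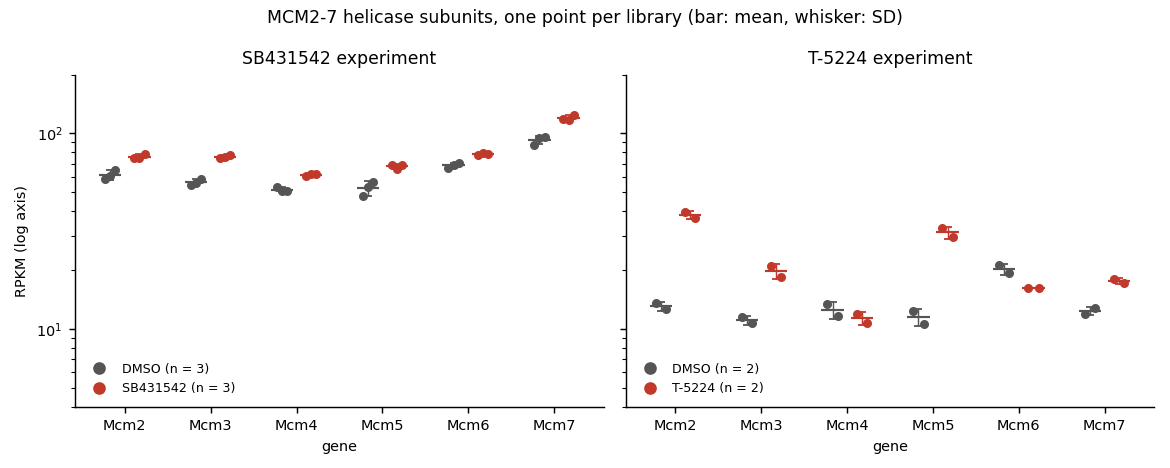
RPKM (log axis) of the MCM2-7 genes in each library of the SB431542 experiment (left) and the T-5224 experiment (right), with DMSO in grey, inhibitor in red, a bar for the mean and whiskers for the SD. On the left each gene is higher with the inhibitor, and on the right Mcm2 and Mcm5 move to between 29.6 and 39.4 RPKM while Mcm6 moves down to 16.2 RPKM.

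Of the 7 origin firing genes, 3 rose with SB431542 (Cdc7, Cdc45 and Mcm10) and 0 fell. With T-5224, 5 rose, Gins3 fell and Gins2 did not pass the test. Cdc7, among those that rose, passed the filter on low values only through the T-5224 libraries. Cdc45, a subunit of the active helicase (mm9 chr16:18780540-18812080), went from 3.97 and 2.96 RPKM to 12.6 and 11.7 RPKM with T-5224 (1.69, standard error 0.11, adjusted p = 8.36e-08). Mcm10, which helps to start unwinding (mm9 chr2:4910760-4933837), went from 1.32 and 0.930 RPKM to 4.20 and 4.14 RPKM (1.53, standard error 0.13, adjusted p = 5.74e-07). These genes were at 3.51 and 3.71 times their DMSO means. With SB431542, Cdc45 rose from 20.5 ± 1.17 to 24.3 ± 0.375 RPKM (SD, n = 3) and Mcm10 from 8.29 ± 0.0561 to 10.1 ± 0.176 RPKM. Exons of Cdc45 overlap those of Ufd1 on the opposite strand, which was 1.69 times its DMSO mean with T-5224.

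The GINS subunits, partners of CDC45 in that helicase, followed no common course. With SB431542 their log2 fold changes lay between −0.02 and 0.24, and 0 of the 4 passed the test. With T-5224, Gins1 (0.56, adjusted p = 0.00856) and Gins4 (0.22, adjusted p = 0.0122) rose, Gins3 fell (−0.23, adjusted p = 0.0491) and Gins2 had −0.18 (adjusted p = 0.0739). The Gins1, Gins3 and Gins4 calls were each lost in 3 to 5 of the alternatives. The ratio of Cdc45 to Gins2 within a library, chosen after the values were seen, was 0.502 and 0.696 in DMSO and 2.37 and 2.42 with T-5224, while with SB431542 the groups overlapped. Gins2 overlaps Gse1 on the opposite strand, which was 0.304 times its DMSO mean with T-5224. Cdc7, the kinase that fires origins, was at 0.709 and 0.613 RPKM in DMSO and 1.74 and 1.84 RPKM with T-5224 (0.98), where its p-value is not given as support because of the filter. In the SB431542 experiment it was at 6.33 ± 0.256 and 7.86 ± 0.297 RPKM (0.29, adjusted p = 0.0183).

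All 6 polymerase and primase genes rose with T-5224, by a log2 fold change of 0.32 (Prim2, which with Prim1 makes the RNA primer) to 1.15 (Pole, the catalytic subunit of the leading strand polymerase). Pole went from 2.84 and 2.62 RPKM to 6.81 and 6.53 RPKM (adjusted p = 3.54e-07). Pold1, the catalytic subunit of the lagging strand polymerase, went from 5.26 and 5.33 RPKM to 11.5 and 10.7 RPKM (adjusted p = 3.30e-07). With SB431542 the 6 genes had log2 fold changes of 0.14 to 0.28, with every treated library above every DMSO library, and Pola1, of the polymerase that extends primers, and Pole passed the test. The call of Pole with SB431542 (adjusted p = 0.0435) was lost in 10 of 14 alternatives.

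Of the sliding clamp and its loader, 3 of 5 genes rose with SB431542 and 4 of 5 with T-5224. Pcna, the clamp, was the most abundant member in the SB431542 experiment, and went from 174 ± 14.1 RPKM in DMSO to 227 ± 5.91 RPKM with SB431542 (SD, n = 3, log2 fold change 0.39, adjusted p = 0.00995). With T-5224 it went from 22.7 and 26.7 RPKM to 37.4 and 34.5 RPKM (0.54, adjusted p = 5.96e-05). Processed copies of Pcna exist in the mouse genome (Pcna-ps1 and Pcna-ps2, and likewise Tyms-ps), and values of Pcna and Tyms are uncertain where reads could be split between the copies.

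Within the loader, Rfc4 and Rfc5 rose with both inhibitors, Rfc3 passed the test with T-5224 and not with SB431542, and Rfc2 passed it with neither. Rfc5 went from 42.9, 45.4 and 46.5 RPKM to 59.2, 63.0 and 60.3 RPKM with SB431542 (0.43, standard error 0.05, adjusted p = 0.00259) and from 7.57 and 7.93 RPKM to 20.2 and 18.1 RPKM with T-5224 (1.25, adjusted p = 3.69e-08). Rfc4 was 1.33 times its DMSO mean with SB431542 (adjusted p = 0.0376) and 2.71 times with T-5224 (adjusted p = 3.19e-08). Rfc2 was at 36.5 and 39.0 RPKM without and with T-5224 (0.09, adjusted p = 0.165). Exons of Rfc4 overlap those of Eif4a2, 1.94 times its DMSO mean with T-5224, and those of Rfc5 overlap Wsb2, 0.746 times its mean, both on the opposite strand.

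The single-strand binding subunits also differed from each other with T-5224. Rpa2 went from 9.06 and 7.36 RPKM to 13.4 and 11.8 RPKM (0.59, adjusted p = 0.000181), while Rpa1 was at 32.2 and 30.5 RPKM and then at 31.3 and 29.5 RPKM (−0.05, adjusted p = 0.503). With SB431542, Rpa2 went from 20.4, 26.1 and 26.0 RPKM to 33.4, 33.7 and 30.3 RPKM (0.43, standard error 0.10, adjusted p = 0.0266). Rpa1 was at 58.7 ± 6.22 and 69.1 ± 0.993 RPKM (SD, n = 3), with groups that did not overlap (0.24, adjusted p = 0.0732).

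The nucleotide supply genes all rose with SB431542 and took 3 courses with T-5224. Rrm2, the small subunit of ribonucleotide reductase that is made in S phase (mm9 chr12:25393106-25399011), rose from 76.0 ± 8.44 to 98.8 ± 0.750 RPKM with SB431542 (SD, n = 3, log2 fold change 0.38, adjusted p = 0.0179). With T-5224 it fell from 18.4 and 15.7 RPKM to 9.48 and 8.68 RPKM (−0.87, standard error 0.09, adjusted p = 2.32e-06), the largest fall after E2f2. Its partner, the large subunit Rrm1, was at 31.9 and 27.6 RPKM and then at 31.4 and 28.5 RPKM (0.01, adjusted p = 0.897), so that Rrm2 was 0.568 and 0.576 times the level of Rrm1 in DMSO and 0.302 and 0.305 times with T-5224. Tyms, thymidylate synthase, rose from 16.1 to 20.9 RPKM with SB431542 (0.37, adjusted p = 0.00432) and from 3.44 to 4.14 RPKM with T-5224 (0.24, adjusted p = 0.0348), where the call was lost in 4 alternatives.

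The last 4 members act behind the fork. Fen1, the flap nuclease of Okazaki fragments, went from 47.7, 58.5 and 59.8 RPKM to 73.9, 74.5 and 74.3 RPKM with SB431542 (0.43, standard error 0.09, adjusted p = 0.0158) and rose by 19.5% with T-5224 (adjusted p = 0.00310). Lig1, the ligase that seals the fragments, passed the test with neither (0.19, adjusted p = 0.0507 with SB431542 and −0.05, adjusted p = 0.678 with T-5224). Chaf1a, of the chromatin assembly factor CAF-1, and Uhrf1, which carries DNA methylation through replication, rose with both. Chaf1a was 1.24 times its DMSO mean with SB431542 (adjusted p = 0.0167) and 1.90 times with T-5224 (adjusted p = 9.71e-07), and Uhrf1 was 1.32 times (adjusted p = 0.00252) and 1.55 times (adjusted p = 1.99e-05). Exons of Chaf1a, Fen1 and Lig1, and of E2f8, Orc1, Pole and Tyms above, overlap those of a gene on the opposite strand, and reads of the pair could be told apart only if strand was used.

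Set side by side, 20 of the 43 members (46.5%) rose with both inhibitors, as did 7.08% of the 10462 genes tested in both. With 26 and 30 of the 43 rising, the separate counts alone give 18.1. Over the 10462 genes, 741 rose with both, where the separate counts alone give 423. Orc1 and Cdc7, among the 20, passed the filter on low values in the T-5224 table only through the T-5224 libraries. E2f2, Mcm6 and Rrm2 rose with SB431542 and fell with T-5224. E2f1, Mcm4 and Rrm1 rose with SB431542 and did not pass the test with T-5224, 10 members rose with T-5224 and did not pass with SB431542, and E2f3, E2f8 and Gins3 did not pass with SB431542 and fell with T-5224. Gins2, Rfc2, Rpa1 and Lig1 passed with neither. Over the 43 members the log2 fold changes of the experiments gave 0.25 for Pearson's r and 0.26 for Spearman's rho, given as a description across genes, which are not independent replicates. The experiments share no libraries, their tables were normalized separately, and the difference between the inhibitors was not tested.

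The level from which the members changed was not alike. In the DMSO libraries the median of the 43 was 24.2 RPKM in the SB431542 table and 7.75 RPKM in the T-5224 table. Every member was lower in the second, at 0.104 (Cdc7) to 0.889 (E2f3) times its level in the first, with a median of 0.243, against a median of 1.01 over the 10462 genes tested in both, of which 49.1% were lower. For 42 of the 43, both DMSO libraries of the T-5224 table were below all 3 of the SB431542 table, which held for 38.1% of all genes. The mean with T-5224 was above the DMSO mean of the SB431542 table for Orc2, Cdt1 and Rfc4, at 2.20, 1.09 and 1.11 times, and below it for the other 40. The labels give both sets of controls the same medium, vehicle and time, the tables cannot be tested against each other, and the table and any difference in the cultures cannot be told apart.

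**Figure D5:**
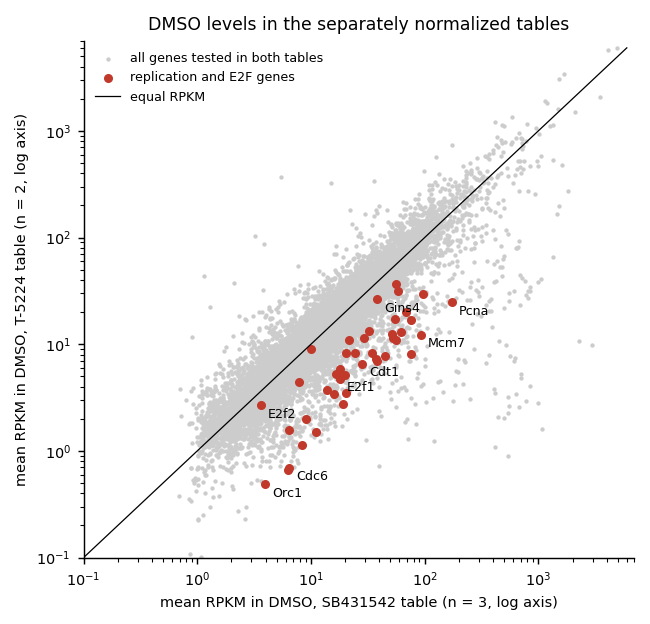
Mean RPKM in DMSO in the SB431542 table (x axis, n = 3) and the T-5224 table (y axis, n = 2), both on log axes, for the 43 members (red) and the 10462 genes tested in both (grey), with a line at equal RPKM. All 43 red points lie below the line, from E2f3 at 0.889 to Cdc7 at 0.104 times.

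The members with and without an E2F motif near the start were then set side by side. With SB431542, 9 of the 16 members with the motif and 15 of the 20 without it rose, where 10.2% of all genes did. Their median log2 fold changes were 0.27 and 0.29. With T-5224, 11 of the 16 rose and 4 fell (E2f2, E2f3, Mcm6 and Gins3), with a median of 0.58, and 15 of the 20 rose and 2 fell (E2f8 and Rrm2), with a median of 0.64. Of all genes, 40.3% rose and 39.4% fell. Orc1, Cdt1 and Mcm5 rose past 2-fold with the motif, and Orc2, Orc6, Mcm2, Cdc45, Mcm10, Rfc4 and Rfc5 did so without it. Orc1 passed the filter on low values only through the T-5224 libraries. Pole, also past 2-fold, has no promoter window and is in neither group. These are descriptions of a few exact letters in a short window and were not tested.

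A list of 50 further replication, E2F, DP and pocket protein genes was looked at in the same way. With SB431542, 16 of the 50 rose, 33 did not pass the test and Pold4, a small subunit of the lagging strand polymerase, fell (−0.52, adjusted p = 0.0296), with a median log2 fold change of 0.19, where 10.2% of all genes rose and 10.0% fell. The largest rises were of Tk1, thymidine kinase (0.67, adjusted p = 0.00442), Dtymk (0.62, adjusted p = 0.0296) and Dut (0.48, adjusted p = 0.0183), all of nucleotide supply. The count of 16 was 26 without DMSO replicate 1, 9 without DMSO replicate 3, and 4 to 6 without one SB431542 library. With T-5224, 47 of the 50 could be tested, of which 34 rose, 9 of them past 2-fold, and 6 fell, with a median of 0.55, where 40.3% of all genes rose, 10.4% past 2-fold, and 39.4% fell. Recql4, Ticrr and Atad5 were under 1 RPKM in both DMSO libraries and passed the filter only through the T-5224 libraries. Over the other 44, 31 rose, 7 of them past 2-fold, 6 fell and the median was 0.49. Recql4, a helicase needed to start replication, was at 0.914 and 0.692 RPKM in DMSO and at a mean of 16.7 RPKM with T-5224 (3.72). Its p-value is not given as support because of the filter. Among those at 1 RPKM or more in DMSO, Mtbp, which acts in origin firing, had the largest change, from 3.74 to 17.6 RPKM (2.09, adjusted p = 7.21e-10). Mcm8 (1.92), Dut (1.64) and Asf1b (1.35) followed.

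Among the partners of the E2F factors in that list, Tfdp1, a DP subunit that E2Fs bind DNA with, rose with SB431542 (0.27, adjusted p = 0.00822) and fell with T-5224 (−0.23, adjusted p = 0.00994), as E2f2 did. The repressive E2f4 rose with T-5224 from 22.4 to 52.4 RPKM (1.21, adjusted p = 7.05e-09), and Rbl2, the pocket protein p130 that binds it, fell from 11.2 to 5.44 RPKM (−0.98, adjusted p = 3.68e-07). Rb1 rose by 0.24 (adjusted p = 0.0156) and Rbl1 by 0.33 (adjusted p = 0.00188). With SB431542, E2f4 (0.21, adjusted p = 0.0745), Rbl2 (−0.15, adjusted p = 0.201), Rb1 (0.05, adjusted p = 0.700) and Rbl1 (0.15, adjusted p = 0.122) did not pass the test.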

How the data were processed

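RNA-seq libraries of ASZ001 cells were made by the authors with a stranded mRNA kit, aligned with TopHat to mm9 and counted with HOMER, and the deposited tables give RPKM per gene and library. The authors' own test used counts, which were not used here. All 10 columns of values were used. The DMSO columns numbered 1 and 2 in the T-5224 table belong to samples labelled 4 and 5 and were mapped to the group only. Rows with a date in place of a symbol (22 and 23) were left out.

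Each table was fitted alone with limma 3.58.1 (R 4.3.3) on log2(RPKM + 0.5), which understates the change of low genes. The fit covered genes with a mean of at least 1 RPKM, with a mean-variance trend, two-sided tests and Benjamini-Hochberg adjustment over all of them. It was tested on simulated data in which every changed gene was past 2-fold, so smaller changes were not covered. The 2-fold limit is the study's. The members and the lists were chosen with earlier results of these data known. RPKM per library were given for the E2F and MCM2-7 genes, the 5 members with the largest change in each experiment and any member past 2-fold against the majority, and for others chosen after their values were seen. Positions are from GENCODE vM1 (mm9), where exons of 13 members overlap another gene. Pseudocounts, filters, centring, quantile normalization, no trend, a replicate block and each library left out were tried as alternatives.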

Additional observations from a re-analysis of the deposited data

How the results depend on the processing

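0 members fell with SB431542 and 0 passed 2-fold in any alternative run. The number of members that rose there was 15 with a replicate block in place of 26, and 6 to 36 with one library left out. Replicate numbers were shared between DMSO and SB431542 only as numbers (correlations of the deviations of same-numbered libraries of -0.15, 0.15 and -0.09), so the block is no design of the study. No paired fit was run for T-5224, since the sample labels do not say which DMSO column goes with which T-5224 replicate. For the further replication and E2F genes, leaving out one library gave 4 to 26 that rose and 0 to 1 that fell, and 0 fell with no filter on low values. E2f7 reached −0.034 to 0.086 with SB431542 with one library left out, and was below 0 without DMSO replicate 2. Without DMSO replicate 1, Gins2 turned from 0.048 to −0.037 and Gins4 from −0.017 to 0.052. The block moved no other count by over 1.5 times.

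With T-5224, 8 to 14 members rose past 2-fold over the processing alternatives and 10 to 12 with one library left out. The count that fell past 2-fold (E2f2) was 0 with a pseudocount of 1, with a mean RPKM of at least 5, where E2f2 was not tested, and after quantile normalization. With a mean RPKM of at least 5, 3 members fell in place of 6, since 29 members were tested. The median log2 fold change was 0.63 with a pseudocount of 0.1, 0.61 after quantile normalization and 0.51 to 0.63 with one library left out. E2f1 turned to 0.056 after quantile normalization and ranged from −0.19 to 0.16 with one library left out, above 0 without DMSO library 2 or T-5224 replicate 2. Rrm1 (0.012) changed sign in 3 alternatives, Rfc2 (0.093) after quantile normalization and Lig1 (−0.045) without T-5224 replicate 2. None of these members was called in the experiment where its sign changed. The restrictions to genes at 1 RPKM or more in DMSO were chosen after the data were seen. Causes were not tested. Groups of 2 or 3 libraries and, for the lowest members, the number of reads limit these results.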

Other observations

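A list of 16 mitosis genes was chosen for comparison with the replication genes. With SB431542, 11 of the 16 rose, 5 did not pass the test and 0 fell, where 10.2% of all genes tested rose, with a median log2 fold change of 0.26, led by Ccnb1, the mitotic cyclin (0.50, adjusted p = 0.00862, limma), and Cdk1, its kinase (0.47, adjusted p = 0.00380). With T-5224, 16 of the 16 rose, 11 of them past 2-fold, where 40.3% of all genes rose and 10.4% did so past 2-fold, with a median of 1.18. Aurkb, a kinase of chromosome segregation, went from 9.29 to 29.6 RPKM (1.62, adjusted p = 4.70e-09), and Mki67, the proliferation marker, from 3.07 to 4.31 RPKM (0.43, adjusted p = 0.00275). In DMSO these genes, too, were lower in the T-5224 table than in the SB431542 table, for 16 of 16 and at a median of 0.188 times, with Mki67 at 50.6 RPKM in the latter.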
